A study of Mus musculus with 4 samples.

Results

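The genes described here encode inhibitory G protein alpha subunits, regulators of G protein signalling (RGS proteins) and 1 receptor, in cells taken from tumour-draining lymph nodes of mice. They are 10 of the 18193 genes that the arrays measure: the alpha subunit genes Gnai1, Gnai2 and Gnai3, the receptor gene Gpr39, and Rgs2, Rgs3, Rgs4, Rgs5, Rgs10 and Rgs16. Each gene was found through the probe sets that the platform annotation assigns to it alone, 27 in all, and is represented by the one with the highest mean over the 4 arrays. The genes were picked with the differences between the groups already known, so those differences are given as a description and without a test. Gpr39 is neither a G protein nor an RGS gene, and the family name covers the other 9.

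The metastatic group consists of cells from nodes draining tumours of 293-VEGF-D cells, a human embryonic kidney line that overexpresses the lymphatic growth factor VEGF-D, and the non-metastatic group of cells from nodes draining tumours of 293-Apex cells. Both lines were grown under the skin of female SCID/NOD mice, labelled as 6 to 8 weeks old, which are immunodeficient, and the axillary node on the tumour's side was taken at a tumour volume of 1600 to 2500 mm3, after 3 to 4 weeks. Each of the 4 preparations, 2 per group, pooled nodes of 1 to 5 mice, was grown briefly in endothelial medium, selected with beads for podoplanin and hybridised to 1 Affymetrix array. Nodes draining metastatic tumours were used only when visibly enlarged, and by the sorting label tumour cells and leukocytes were removed before culture in the metastatic group alone, whereas the growth protocol describes that step for all. VEGF-D, the tumour line, node size and depletion therefore cannot be told apart here.

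A heterotrimeric G protein relays the signal of a membrane receptor. The receptor loads the alpha subunit with GTP, and alpha subunits of the Gi class then inhibit adenylyl cyclase and so lower cyclic AMP, while the freed beta-gamma pair opens potassium channels and activates other effectors. RGS proteins speed up GTP hydrolysis by the alpha subunit and so end the signal. In vessels and stroma, Gi proteins carry the signals of chemokine, sphingosine 1-phosphate and lysophosphatidic acid receptors, and several RGS genes are known from pericytes and smooth muscle.

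Signals are log2 values per probe set, and a difference is the metastatic minus the non-metastatic mean, so that a difference of 1 is a doubling of signal. Of the 10 genes, 4 differed by at least 2-fold: Gnai1, Gpr39 and Rgs2 were lower in the metastatic group and Rgs4 was higher. In the other 6 genes the groups overlapped, with differences from -0.37 to 0.18. By comparison, 0.945% of all genes differed by at least 2-fold. The groups did not overlap for 4 of the 10 genes and for 34.6% of all genes. By direction, 3 were lower and 1 higher, against 17.3% and 17.2% of all genes. Since the same contrast was used to choose the genes, nothing is read from these shares. As bulk signals, all values leave fewer cells of a type and less RNA per cell indistinguishable.

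The sequences before the transcription start are shown for the 4 genes whose groups lay apart, as the stretches in which their transcription starts. They are RefSeq windows of build GRCm38.p6, from 250 bases before to 50 bases after the start, printed 5′ to 3′ on the gene's strand. Windows were found for 9 of the 10 genes. Capitals mark the core letters of the cyclic AMP response element, TGACG on either strand, and the TATA box letters TATAAA.
Gnai1, chr5:18360364-18360663, minus strand: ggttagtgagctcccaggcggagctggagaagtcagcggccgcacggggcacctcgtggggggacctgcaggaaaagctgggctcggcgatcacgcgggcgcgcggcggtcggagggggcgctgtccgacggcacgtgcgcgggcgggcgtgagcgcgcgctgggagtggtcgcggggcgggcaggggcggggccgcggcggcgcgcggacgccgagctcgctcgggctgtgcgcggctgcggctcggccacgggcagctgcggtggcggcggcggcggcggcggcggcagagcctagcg
Gpr39, chr1:125676746-125677045, plus strand: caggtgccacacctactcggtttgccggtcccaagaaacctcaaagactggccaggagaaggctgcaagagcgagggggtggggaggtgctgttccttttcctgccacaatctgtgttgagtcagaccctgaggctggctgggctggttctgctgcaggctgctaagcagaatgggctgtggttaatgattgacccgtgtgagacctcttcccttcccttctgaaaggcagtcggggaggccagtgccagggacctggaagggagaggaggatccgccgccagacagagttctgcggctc
Rgs2, chr1:144004100-144004399, minus strand: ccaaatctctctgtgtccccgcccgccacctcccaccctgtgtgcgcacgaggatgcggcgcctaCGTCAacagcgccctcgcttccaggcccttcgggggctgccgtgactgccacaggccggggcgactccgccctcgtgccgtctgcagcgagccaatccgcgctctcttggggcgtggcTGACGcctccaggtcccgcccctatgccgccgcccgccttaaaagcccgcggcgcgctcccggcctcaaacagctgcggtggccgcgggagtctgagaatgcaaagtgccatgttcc
Rgs4, chr1:169747593-169747892, minus strand: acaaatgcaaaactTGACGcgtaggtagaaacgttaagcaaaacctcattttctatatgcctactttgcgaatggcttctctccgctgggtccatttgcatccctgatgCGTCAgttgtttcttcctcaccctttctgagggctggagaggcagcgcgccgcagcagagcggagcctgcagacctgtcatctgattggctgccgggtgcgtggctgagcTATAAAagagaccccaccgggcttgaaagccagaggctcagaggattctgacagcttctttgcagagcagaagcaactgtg

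The cyclic AMP response element is where CREB binds, a transcription factor activated by the messenger that Gi proteins lower. The Rgs2 window holds this core at 2 places, starting 185 and 67 bases before the start site, and the Rgs4 window also at 2, starting 236 and 141 bases before it. Among all 32851 windows of this length 20.8% hold TGACG on either strand. Rgs2 and Rgs4, which share these letters, differed between the groups in opposite directions. The Gnai1 and Gpr39 windows hold none. Of the other members' windows, that of Gnai3 holds it at 1 place, position 40 counted from the start site as 1. The window of Rgs4 has TATAAA starting 31 bases before the start, letters found in 13.6% of all windows. Both windows of Rgs3, whose groups overlapped, hold these letters too, starting 100 and 177 bases before the start. The windows of Gnai1 and Rgs2 hold the GC box GGGCGG at 3 and 4 places (35.7% of all windows hold it), and are 80.0% and 70.0% G or C, against a median of 52.7%. Among members whose groups overlapped, the Rgs10 and Rgs16 windows hold the GC box at 2 places each and 1 Rgs3 window at 1. The Rgs10 and Rgs16 windows are 76.0% and 66.0% G or C. Neither the full element TGACGTCA, which contains the core (1.79% of all windows), nor the CArG box of smooth muscle genes (1.63%) was found in any member's window. A match describes letters and not a bound site.

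Gnai1 encodes an alpha subunit of the Gi class that was lower in the metastatic group. Its log2 signal was 7.03 and 6.82 on the metastatic arrays and 8.76 and 8.67 on the non-metastatic arrays. The groups lay well apart, and the arrays within each group lay close together. The means were 6.92 ± 0.15 and 8.71 ± 0.07 (SD, n = 2 each). This is a log2 difference of -1.79 (SE 0.12) and a 3.46-fold lower signal. By its name, this probe set may detect transcripts of more than 1 gene. A further probe set without that mark had 6.76 and 6.50 against 8.23 and 8.18, a difference of -1.57 (SE 0.13). The third, dimmer one had -0.51 (SE 0.13). All 3 probe sets of Gnai1 therefore placed both metastatic arrays below both non-metastatic arrays, by amounts that differed.

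Gnai2 and Gnai3 encode the closely related alpha subunits that most cell types carry. Gnai2 had 11.67 and 11.86 on the metastatic arrays and 11.93 and 11.84 on the non-metastatic arrays. The groups overlapped, with a difference of -0.12 (SE 0.12). Its other probe set stood on the opposite side, at 0.28 (SE 0.23), with 1 metastatic array at 10.996 and the remaining arrays at 10.30 to 10.41. Gnai3 had 11.55 and 11.73 against 11.58 and 11.61, a difference of 0.05 (SE 0.12), and its other probe set, marked as less specific, stood at -0.13 (SE 0.14). For both genes the difference was about the size of its SE or smaller and took both signs over the probe sets. These values bound the difference loosely and do not show that the genes were equal. Within the Gi alpha genes, the separation was thus seen for Gnai1, and the 3 differences were not tested against each other.

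Gpr39 encodes a receptor of the ghrelin and neurotensin receptor family that senses extracellular zinc and is known to signal through several classes of G protein. Its single probe set had 7.10 and 7.06 on the metastatic arrays and 8.51 and 8.73 on the non-metastatic arrays. The 4 values fell into the groups with no overlap and little spread inside them. The means were 7.08 ± 0.03 and 8.62 ± 0.16 (SD, n = 2 each). The difference was -1.54 (SE 0.12), which is 2.91-fold lower. In the RefSeq annotation Gpr39 overlaps Lypd1, a gene for a membrane-anchored protein. The brightest probe set annotated to Lypd1 had 6.73 and 6.28 against 6.61 and 6.58, a difference of -0.09 (SE 0.17). That probe set did not separate the groups, and any others of Lypd1 were not read. Where the Gpr39 probe set lies relative to that overlap was not analysed here.

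**Figure D1:**
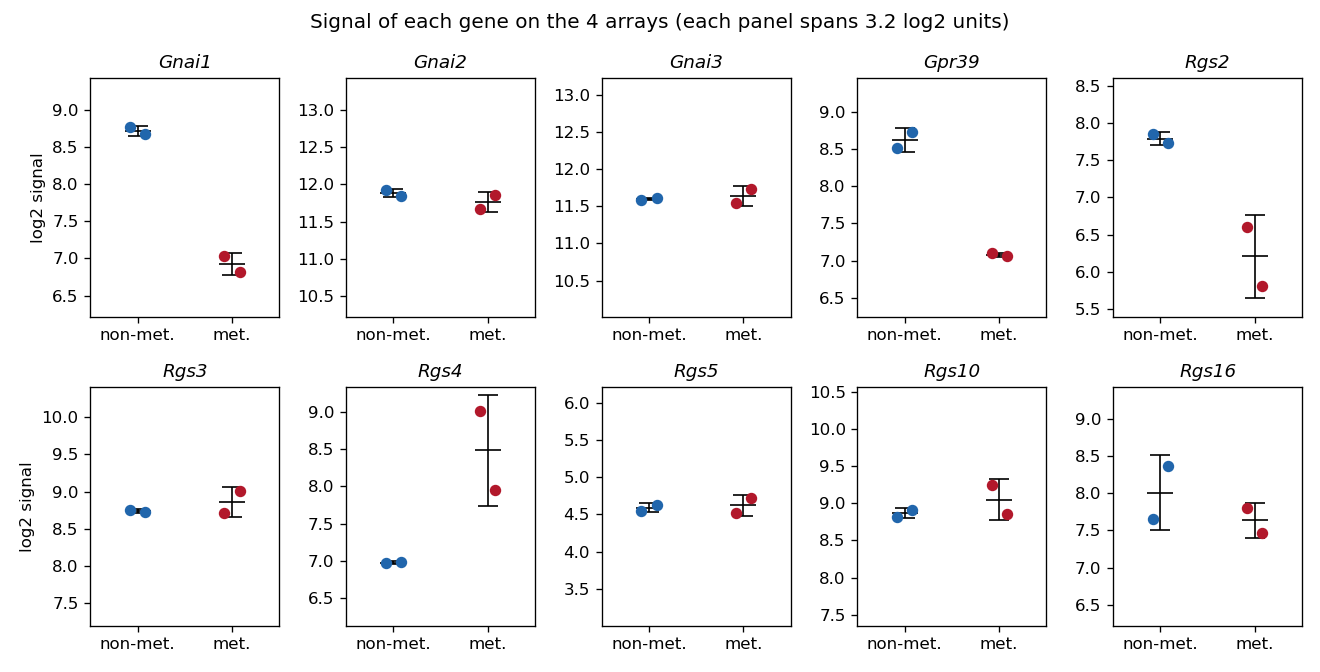
Log2 signal of the 10 genes on the 4 arrays, 1 panel per gene, with non-metastatic (blue) and metastatic (red) preparations as points and the mean ± SD of each group (n = 2) as black bars. The panels have the same height in log2 units but different positions, because levels of different probe sets are not comparable. Gnai1, Gpr39 and Rgs2 lie lower in both metastatic arrays and Rgs4 higher, while the groups overlap in the other 6 genes.

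The RGS genes held differences of both signs. Rgs2 encodes a small RGS protein known for its preference for Gq alpha subunits and for limiting vascular contraction. Its signal was 6.60 and 5.82 on the metastatic arrays and 7.85 and 7.73 on the non-metastatic arrays. Both metastatic arrays lay below the others, and they also differed from each other, with an SD of 0.56 against 0.09 in the non-metastatic group. The difference was -1.58 (SE 0.26), or 2.99-fold lower. Of its other 3 probe sets, 2 gave larger differences, -1.80 (SE 0.29) and -1.84 (SE 0.25), and a dim one gave -0.32 (SE 0.17). By its name, the probe set at -1.84 may detect transcripts of more than 1 gene. All 4 probe sets of Rgs2 placed both metastatic arrays lower.

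Rgs4 encodes an RGS protein that acts on Gi and Gq alpha subunits and was the only 1 of the 10 genes with higher signal on both metastatic arrays than on both others. It had 9.01 and 7.96 on the metastatic arrays and 6.97 and 6.99 on the non-metastatic arrays. The non-metastatic arrays were nearly equal, whereas metastatic replicate 1 stood well above metastatic replicate 2. The means were 8.48 ± 0.74 and 6.98 ± 0.02 (SD, n = 2 each). The difference was 1.51 (SE 0.33), which is 2.84-fold higher. Its other probe sets stood at 1.17 (SE 0.27) and 1.32 (SE 0.34), with the same order of the metastatic arrays in each. Without metastatic replicate 1 the Rgs4 difference was 0.98, so the size rests to a large part on that array.

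Rgs5, the neighbour of Rgs4 in the RefSeq annotation, encodes an RGS protein widely used as a pericyte marker. Its brightest probe set had 4.52 and 4.72 on the metastatic arrays and 4.55 and 4.63 on the non-metastatic arrays. The groups overlapped, with a difference of 0.03 (SE 0.12), and the other 3 probe sets gave differences of 0.02 to 0.05. All 4 were dim, with means of 4.02 to 4.61 against a median of 5.95 over all probe sets. No detection calls were used, so Rgs5 can be called neither present nor absent, and the small differences carry little information about it. Whether the higher Rgs4 signal of the metastatic group had a like difference at this adjacent gene therefore cannot be told, and it was not tested.

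Rgs3, a longer RGS protein with several isoforms that acts on Gi and Gq alpha subunits, had 8.72 and 9.01 against 8.76 and 8.72, a difference of 0.12 (SE 0.14). Its other 3 probe sets gave 0.25 (SE 0.11), 0.16 (SE 0.12) and 0.01 (SE 0.12), and in the first 2 of these both metastatic arrays were higher, by little. Rgs10, an RGS protein best known from microglia, other myeloid cells and lymphocytes, had 9.24 and 8.85 against 8.82 and 8.92, a difference of 0.18 (SE 0.16). Metastatic replicate 1 alone stood high, and without it the Rgs10 difference was -0.01. Rgs16, which is induced by cytokines and acts on Gi and Gq alpha subunits, had 7.80 and 7.46 against 7.65 and 8.36. Its groups overlapped with a difference of -0.37 (SE 0.26), and non-metastatic replicate 2 stood above the others. Without that array the Rgs16 difference was -0.02, and without non-metastatic replicate 1 it was -0.73. The other probe sets of Rgs16 stood at -0.48 (SE 0.40) and -0.01 (SE 0.25).

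**Figure D2:**
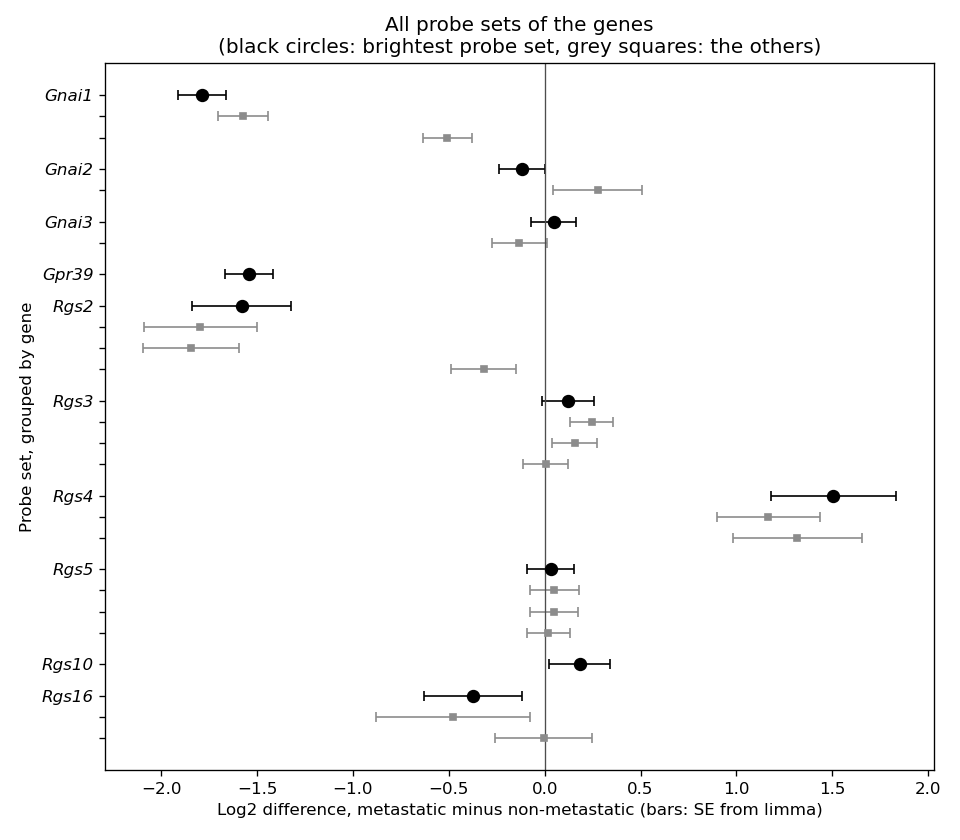
Log2 difference (metastatic minus non-metastatic, horizontal axis) of all 27 probe sets, grouped by gene, with the SE from limma as bars. Black circles are the brightest probe set of each gene and grey squares the others. All 11 probe sets of Gnai1, Gpr39, Rgs2 and Rgs4 lie on 1 side of zero for their gene. So do those of Rgs3, Rgs5, Rgs10 and Rgs16, whose groups overlap, whereas those of Gnai2 and Gnai3 lie on both sides.

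Across the 4 genes whose groups lay apart, all 11 probe sets separated the groups in the direction of their gene. Across the other 6 genes, 2 of 16 probe sets separated them, both of Rgs3. The share over all probe sets was 34.5%, and nothing is read from these counts, since the genes were sorted by the same values. Probe sets of 1 gene are read from the same RNA and are no replicates. Where both metastatic arrays lie on 1 side of both others, leaving out 1 array cannot turn the direction, so only the size is informative. With each array left out in turn, the differences were -1.89 to -1.69 for Gnai1 and -1.65 to -1.43 for Gpr39. They were -1.97 to -1.19 for Rgs2 and 0.98 to 2.03 for Rgs4. Of the other members, Gnai3, Rgs3, Rgs5 and Rgs10 took the opposite sign without at least 1 array.

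**Figure D3:**
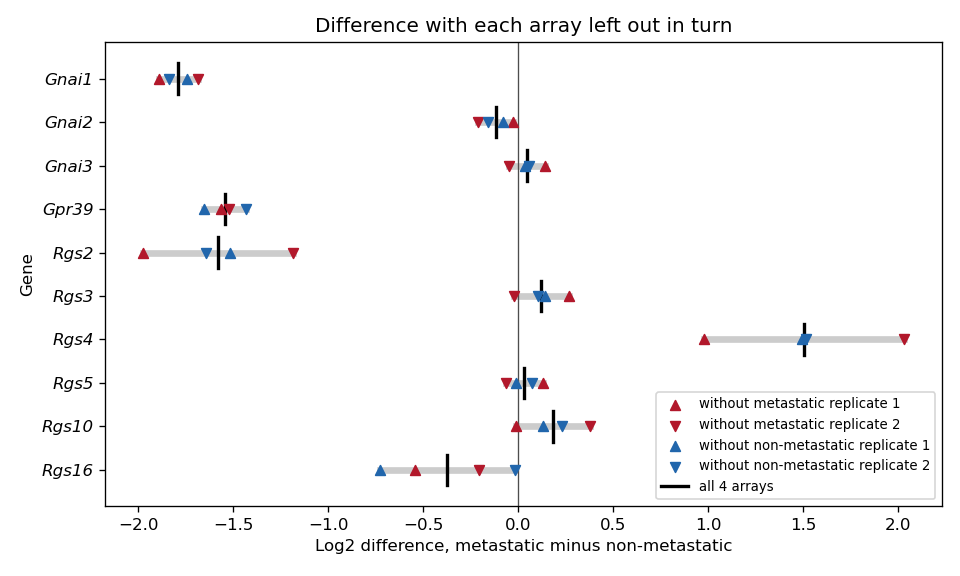
Log2 difference (metastatic minus non-metastatic) of each gene with all 4 arrays (black bars) and with each array left out in turn (triangles, red for metastatic and blue for non-metastatic arrays). The range is narrow for Gnai1 and Gpr39, wide for Rgs2 and Rgs4 through the 2 metastatic arrays, and wide for Rgs16 through the non-metastatic arrays.

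The genes whose profile over the 4 arrays was most like that of Gnai1 were sought among all genes, by the root mean square distance between log2 values centred on each gene's mean. They were Actg2, a smooth muscle actin (distance 0.06), Hs3st1, a heparan sulfate sulfotransferase (0.151), and Adamtsl4, a secreted matrix protein (0.156). Actg2 had 7.04 and 6.93 against 8.84 and 8.85. Adamtsl4 had 8.25 and 8.13 against 9.68 and 9.68. With 4 arrays, the likeness mostly restates a similar difference between the groups.

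The other genes of the pathway were read from 9 lists of 107 genes, of which 98 were measured. In limma with Benjamini-Hochberg adjustment over all 45037 probe sets, 0 of the 98 passed at 0.05, as did 0% of all probe sets. An unadjusted limma p under 0.05 was found for 7 of the 98 and for 1219 of all 18193 genes. Both metastatic arrays were higher for 18 of the 98 and lower for 17, 35.7% together against 34.6% of all genes. The median difference was -0.03, against 0.00 for all genes. A difference of at least 2-fold was found for 0 of the 98 and for 0.945% of all genes. The 10 genes were chosen by their differences, and these lists too were chosen with earlier results of these data known. The sizes of their differences are therefore not compared.

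Among the other alpha subunits of the Gi class, Gnao1, Gnaz, Gnat1 and Gnat2 had differences of -0.19 to 0.01, and their groups overlapped in each. Alpha subunits of the other classes, among them those that stimulate adenylyl cyclase or phospholipase C, had differences of -0.17 to 0.10 for 8 genes. Gnaq, the main partner of Rgs2, had 8.75 and 8.58 against 8.87 and 8.80 (difference -0.16, SE 0.12), and the difference was -0.25 and -0.08 without metastatic replicates 1 and 2. Gna14 of the same class had -0.17 (SE 0.12), and -0.10 without metastatic replicate 1. Beta and gamma subunit genes were higher for 12 of 16 and lower for 4, with a median of 0.09. Gng12 had 12.18 and 12.19 against 12.49 and 12.55, a difference of -0.34 (SE 0.11, limma adjusted p = 0.692), and Gngt2 had 0.26 (SE 0.14), or 0.13 without non-metastatic replicate 2. The beta and gamma genes thus stayed within 0.37 in either direction.

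Among the 13 other RGS genes measured, 7 were higher and 6 lower, with differences of -0.20 to 0.40 and a median of 0.01. Rgs18, an RGS gene of platelets and myeloid cells, had 4.08 and 3.89 against 3.65 and 3.52 (difference 0.40, SE 0.12, limma adjusted p = 0.678), all dim. Rgs11 had 0.18 (SE 0.13), or 0.09 without metastatic replicate 2. Rgs13 and Rgs8, which lie next to Rgs2 and Rgs16 in the annotation, had -0.01 (SE 0.13) and -0.20 (SE 0.22). Of 9 modulators of Gi outside the RGS family, 6 were higher and 3 lower. Rap1gap, which links Gi to the small GTPase Rap1, had 0.21 (SE 0.14; 0.35 and 0.06 without metastatic replicates 1 and 2) and the RGS-binding protein gene Rgs7bp had -0.13 (SE 0.11).

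Effectors and receptors of Gi came next. Of 14 genes for adenylyl cyclases and for potassium channels opened by beta-gamma, 6 were higher and 8 lower, with a median of -0.08. The channel gene Kcnj3 had 6.58 and 7.18 against 7.37 and 8.23, a difference of -0.92 (SE 0.33, limma adjusted p = 0.762), which ran from -1.35 without non-metastatic replicate 1 to -0.49 without non-metastatic replicate 2 and was -1.13 with the mean of its probe sets. The cyclase gene Adcy3 had 9.41 and 9.60 against 9.13 and 9.19, a difference of 0.35 (SE 0.12, limma adjusted p = 0.743). Gi-coupled receptor genes were lower for 17 of 22 and higher for 5, with a median of -0.07. S1pr1, the sphingosine 1-phosphate receptor of endothelium and lymphocytes, had 7.06 and 6.86 against 7.47 and 7.10, a difference of -0.33 (SE 0.16, limma adjusted p = 0.884), and Lpar3 had -0.17 (SE 0.11). The value of S1pr1 ran from -0.51 without non-metastatic replicate 2 to -0.14 without non-metastatic replicate 1. Ptger3, a prostaglandin receptor gene named after its value was seen, had the largest receptor difference, 0.56 (SE 0.31), with metastatic replicate 1 at 4.99 and the other arrays at 3.83 to 4.10. Most of the receptors were dim, as 7 of 22 had a mean above the median of all probe sets.

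Relatives of Gpr39 in the ghrelin and neurotensin receptor family were all below that median. Nmur1, a neuromedin U receptor, had a difference of -0.35 (SE 0.11, limma adjusted p = 0.682) and Ghsr, the ghrelin receptor, one of 0.23 (SE 0.11), and the differences of all 6 lay within -0.35 and 0.23. Receptor kinases and arrestins, which switch off activated receptors, were lower for 5 of 6 genes. The kinase gene Grk5 had 9.002 and 9.201 against 9.88 and 9.61, a difference of -0.64 (SE 0.14, limma adjusted p = 0.471), and the groups lay apart. The arrestin gene Arrb1 had -0.27 (SE 0.15), and -0.42 and -0.12 without non-metastatic replicates 2 and 1.

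**Figure D4:**
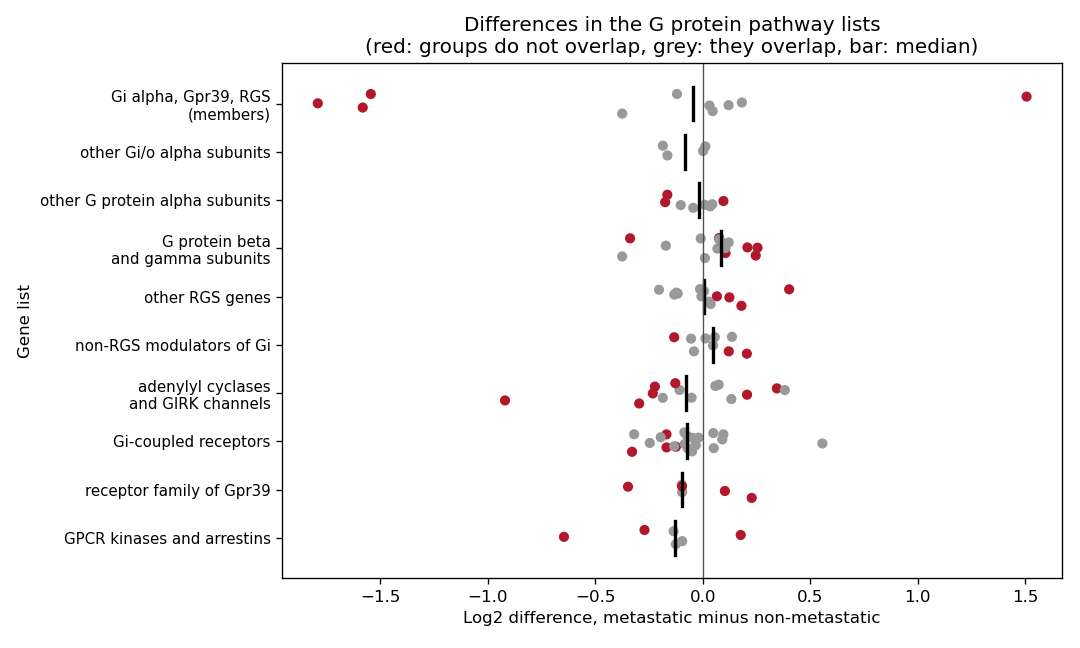
Log2 difference (metastatic minus non-metastatic) of each of the 10 genes (top line) and of the 98 measured genes in 9 pathway lists. Each point is a gene, red where the groups do not overlap and grey where they do, and black bars are medians. The 10 genes were chosen by their differences, so the top line is not compared with the others. Among the 98 genes, Kcnj3 has the largest absolute difference.

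Cell type markers were read on the same arrays, because RGS genes are used to mark pericytes and leukocytes. Of 13 pericyte and smooth muscle markers, 11 were lower and 2 higher in the metastatic group, with a median of -0.53. Their mean log2 level was 7.92 and 8.16 on the metastatic arrays and 8.52 and 8.71 on the non-metastatic arrays. The direction is that of Gnai1, Gpr39 and Rgs2 and opposite to that of Rgs4. Both metastatic arrays were lower for 9 of the 13, against 17.3% of all genes. Among the 9 were the contractile genes Actg2 (-1.86), Cnn1 (-1.06), Lmod1 (-0.66) and Myh11 (-0.61). The pericyte genes Mcam (-1.05), Cspg4 (-0.39) and Notch3 (-0.39) were also among them. The pericyte genes Pdgfrb, Kcnj8 and Abcc9, at -0.02, 0.02 and 0.07, overlapped between the groups. Macrophage and dendritic cell markers were lower for 10 of 12, with mean levels of 6.06 and 5.94 against 6.41 and 6.18. For blood endothelium 7 of 12 markers were lower, with mean levels of 6.16 and 5.99 against 6.53 and 6.28. The part of any of these cell types in the differences of the 4 genes was not tested.

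General leukocyte markers, beside which Rgs10 and Rgs18 may be read, had mean levels of 5.01 and 5.06 against 5.08 and 5.11, with 4 of 11 higher. Ptprc, the common leukocyte antigen, stood at 4.13 on average, below the median of all probe sets. The label calls the cells an enriched endothelial fraction. Above that median were 5 of 12 blood endothelial, 6 of 9 lymphatic and 9 of 10 fibroblast markers. The fibroblast markers had mean levels of 10.82 and 10.4 on the metastatic arrays and 10.92 and 10.79 on the non-metastatic arrays. For the lymphatic markers these were 6.73 and 6.65 against 7.02 and 6.85. Levels of different probe sets are not comparable, so the share of each cell type cannot be read from them. Eng, Kdr and Emcn of endothelium and Pdpn, Foxc2, Nrp2 and Lyve1 of lymphatic endothelium had means above the median of all probe sets. Pecam1, Cdh5 and the lymphatic gene Prox1, with 4.94, 5.87 and 4.00, had means below it. Lyve1 was above it through the non-metastatic group, with a mean of 8.03 there and 5.27 in the metastatic group. Emcn was below it on metastatic replicate 2, at 5.66. Pdpn encodes podoplanin, for which the cells were selected, so its level is no independent sign of cell type. Of the lymphatic markers 4 of 9 were higher and 5 lower, of the fibroblast markers 5 and 5, and of the epithelial markers 1 of 8 higher and 7 lower, with medians of -0.08, -0.01 and -0.05. Besides Actg2, 3 markers differed by more than any of the 10 genes, all lower in both metastatic arrays: the lymphatic hyaluronan receptor gene Lyve1 (-2.76, SE 0.64), the endothelial sialomucin gene Emcn (-2.53, SE 0.29) and the chemokine gene Cxcl13 (-1.95, SE 0.69). They share the direction of Gnai1, Gpr39 and Rgs2, and this was not tested further. Other markers of the endothelial lists went the other way. Both metastatic arrays were higher for 3 lymphatic markers, Nrp2 (0.71), Pdpn (0.51) and Reln (0.24), and lower for 2. Reln was dim, with 5.546 and 5.077 against 5.064 and 5.074, so its difference rests on metastatic replicate 1. For blood endothelium both metastatic arrays were higher for 1 marker, Kdr (0.12), and lower for 3. Over all genes the shares were 17.2% higher and 17.3% lower.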

How the data were processed

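Each of the 4 preparations was read on 1 Affymetrix array. The authors deposited values that range as log2 signals do, 1 per probe set. For summary software and normalization, the labels name nothing (not given in the sources used here). Detection calls were not used, and the number of arrays limits the precision. Array medians differed by 0.116, above a limit of 0.1, so the arrays were quantile normalized. After 64 control probe sets were left out, 45037 probe sets were fitted with limma 3.58.1 in R 4.3.3 (lmFit and eBayes, 2 residual degrees of freedom), without a filter, and p-values were adjusted by Benjamini-Hochberg. Symbols were updated through Entrez numbers for 34741 of 34945 single-gene probe sets. The smallest adjusted p was 0.0863; 2731 probe sets had an unadjusted p under 0.05. An exact permutation test of 2 against 2 arrays cannot go below a two-sided p of 0.33. The fit was also run on data simulated from its own fitted variances, which checks the calculation and cannot test the assumptions of the model. The members and lists were chosen with earlier results of these data known, and p-values are given for no member. From each pathway list the text names the 2 genes with the largest difference among those whose groups lay apart, and others where a count or a neighbour called for them, chosen after their values were seen. Promoter letters were searched in Python 3.11.15 on both strands; plots used matplotlib 3.10.9. Alternatives were the deposited values, median centring, trend and robust moderation, the replicate number as a block, other probe set choices, brighter probe sets, a 2-fold limit, and each array left out.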

Additional observations from a re-analysis of the deposited data

How the results depend on the processing

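With 2 arrays a group, precision is limited, and dim probe sets such as those of Rgs5 give no firm value. Gnai1, Gpr39, Rgs2 and Rgs4 kept their direction under all 10 alternatives run for each. Their differences ran from -1.89 to -1.29, -1.65 to -1.43, -1.97 to -1.19 and 0.98 to 2.03, in that order. Most of these alternatives could not turn the direction. Leaving out 1 array cannot do so where the groups lie apart, and moderation and the block leave the difference itself unchanged. Gpr39 has a single probe set, so other probe set choices leave it unchanged too. Gnai1 had -1.29 with the mean of its probe sets and -1.57 with probe sets named for 1 gene only. Rgs16 kept its sign too (-0.73 to -0.02), and Gnai2, Gnai3, Rgs3, Rgs5 and Rgs10 each turned sign under 1 or 2. The number of members whose groups did not overlap, 4 (34.6% of all genes), was 5 with the deposited values (33.6%), 7 after median centring (32.9%), 6 with the mean of probe sets (35.4%) and 5 to 9 with 1 array left out (58.9% to 77.5% of all genes). The count of probe sets called, 0, became 5 with trend and robust moderation, 145 with the replicate number as a block, and ranged from 0 to 67 with 1 array left out; the 67 came without metastatic replicate 1. The labels do not say that the numbers pair the preparations, and deviations of same-numbered arrays correlated at 0.248 across probe sets. The pathway lists had 0 genes called under every alternative run, the block included. The cause of these shifts was not tested.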
